A study of Bos taurus with 37 samples.

Results

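The comparison described here set 6 male sham NT-BLs against 6 male IVF-BLs, each library being a single bovine blastocyst, which makes 12 of the 37 libraries of the series. Genes were chosen by position and level: of 22628 rows of the expression table, 21606 were autosomal, and the 14323 of these with a mean over 0.1 FPKM (fragments per kilobase of transcript, scaled to the mapped fragments of the library) in the 12 libraries were tested. Sham NT-BLs began as zygotes fertilized in vitro. At 18 to 22 h after IVF, part of the zona was torn and the polar body was taken out with some of the cytoplasm beneath it, both pronuclei being left in place. After 2 h the zygotes received the activation that cloned embryos receive, 5 μM ionomycin for 5 min and then 2.5 mM DMAP for 3.5 h in CR1aa medium with 0.3% BSA, and were cultured to blastocysts. IVF-BLs had neither the puncture nor the activation. Since puncture, loss of cytoplasm and chemical activation came together in every sham embryo, their parts in any difference cannot be told apart. The question was what manipulation itself does to stress, metabolism and lineage genes. The same contrast in 5 female sham NT-BLs and 6 female IVF-BLs, which shares no library with the males, was used for comparison.

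A blastocyst holds an outer epithelium, the trophectoderm, which will form the placenta, and an inner cell mass, whose epiblast will form the calf and whose primitive endoderm will line the yolk sac. The trophectoderm pumps sodium and water through a sealed layer to fill the cavity. Ionomycin raises free calcium and DMAP blocks the kinases that hold an egg in meiosis. Cells under strain use a few well-known programs: heat shock chaperones for unfolded proteins, the unfolded protein and integrated stress responses of the endoplasmic reticulum, the NFE2L2 program against oxidants, and the BCL2 family and caspases for cell death. Early embryos take energy mainly from pyruvate through the citrate cycle and, by the blastocyst stage, increasingly from glucose.

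The labels held for sex, and both groups carried trophectoderm RNA. The labels give no day or cell number for these embryos, so equal stage was not tested. The Y-linked UTY stood at 4.48 to 7.36 FPKM in male sham NT-BLs and 3.74 to 7.68 FPKM in male IVF-BLs. Keratins of the trophectoderm were abundant in both groups: KRT8 ran 1447 to 3404 (median 2131) FPKM in sham NT-BLs and 1779.7 to 2337 (median 2156) FPKM in IVF-BLs. By the read statistics supplied with the study, all 6 male sham libraries had a lower mapped share of reads than every male IVF library, and 5 of the 6, all but sham 2, lay under 70%, against 0 of 6 IVF libraries. The number of autosomal rows listed at 0 averaged 8734 ± 357 in sham NT-BLs and 8363 ± 211 in IVF-BLs (SD, n = 6 each; exact two-sided permutation test, p = 0.0606), and rows over 1 FPKM averaged 9724 ± 217 in sham NT-BLs and 9920 ± 183 in IVF-BLs (p = 0.121). Without sham 2 the exact tests gave p = 0.00649 and p = 0.0303, and without IVF 1 the first gave p = 0.0390. The 20 most abundant genes took 21.2% ± 2.41 of the summed FPKM in sham NT-BLs and 21.0% ± 2.74 in IVF-BLs (exact permutation test, p = 0.909). FPKM carry no read depth, so the part of a lower mapped share in the differences below was not tested. Fits with and without sham 2 cannot tell it from the treatment, since sham 2 is 1 library and also mapped below every IVF library.

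Some sham libraries stood apart in a second way. Over the series, 10 autosomal rows separated all 12 male from all 12 female IVF-BLs and SCNT-BLs with a gap of more than 1 on the log2(FPKM + 1) scale, a choice that used no sham library. Among them, CNGB1, a channel subunit of photoreceptors, read 7.55 to 16.7 FPKM in male and 0.0985 to 0.328 FPKM in female IVF-BLs, and ITPR2, a calcium channel of the endoplasmic reticulum, read 0 to 28.9 FPKM in male and 142 to 244 FPKM in female IVF-BLs. Male sham 1 and 2 lay on the male side for all 10 rows, whereas male sham 3, 4, 5 and 6 lay on the female side for 9, 9, 10 and 8 of them. Female sham 1 lay on the female side for all 10, and female sham 2 to 5 on the male side for all 10. In libraries 1 to 6 of the male sham NT-BLs, CNGB1 read 11.5, 28.2, 0.866, 1.25, 1.16 and 1.25 FPKM, and ITPR2 read 20.8, 17.1, 99.2, 131, 158 and 141 FPKM. Female sham 1 to 5 had 1.37, 24.7, 22.5, 26.8 and 26.6 FPKM of CNGB1. The Y-linked UTY and the X-linked XIST followed the labelled sex in the same libraries: XIST stood at 4.92 to 10.002 FPKM in male and at 64.5 to 135 FPKM in female sham NT-BLs. Male and female embryos of the study were sequenced as separate pools on separate flow cells, so sex and flow cell cannot be told apart. The sources used here give no flow cell for single libraries, so a difference between flow cells and one between male sham 3 to 6 and the male IVF-BLs cannot be told apart, and what set these rows was not tested. Male gene counts, the gene lists and the genes picked by the naming rule (given under processing) were therefore computed again. These fits used male sham 1 and 2 alone and male sham 3 to 6 alone, alternatives chosen after seeing the data. Genes named for another reason, the library measures and the SCNT-BL levels were not computed in these ways. Not every value from these fits is printed below.

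**Figure D1:**
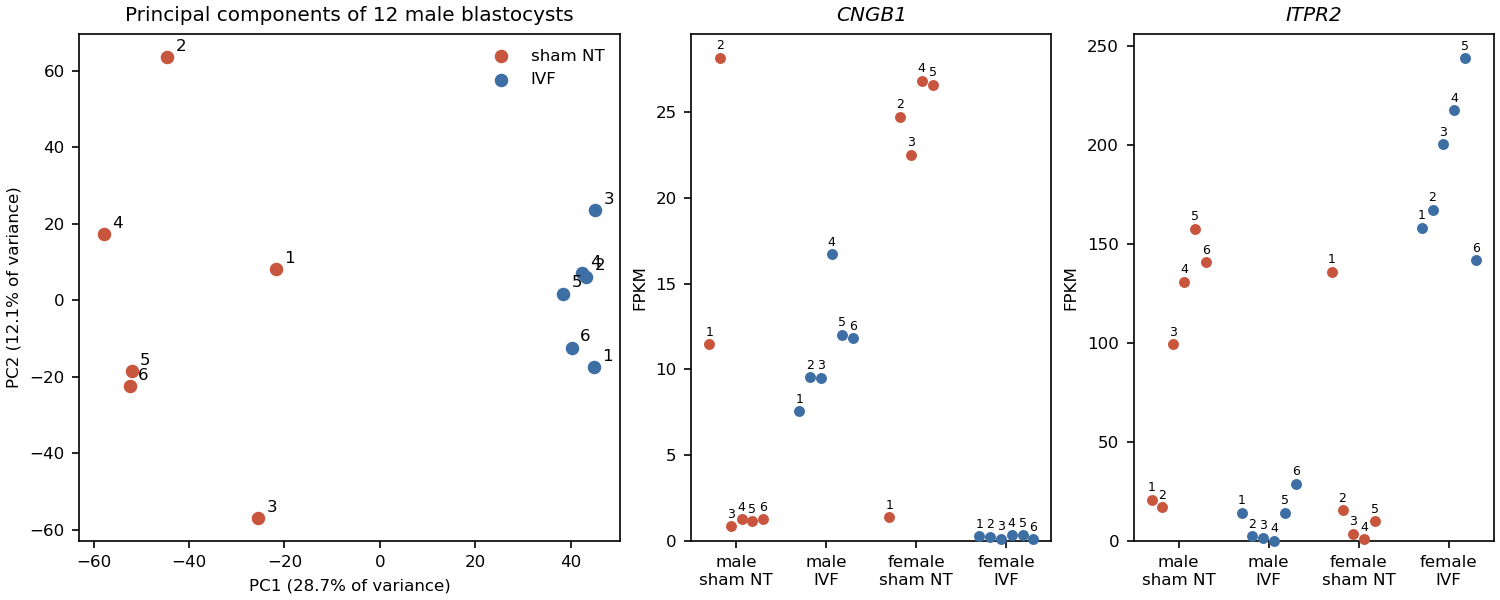
Left, the first 2 principal components of the 12 male blastocysts over 10577 autosomal genes averaging more than 1 FPKM, log2(FPKM + 1), with library numbers. Middle and right, FPKM of CNGB1 and ITPR2 in each male and female sham NT-BL and IVF-BL (points, numbered by library). Sham and IVF embryos part on the first component, and male sham 3 to 6 and female sham 2 to 5 lie nearer to the IVF-BLs of the other sex in CNGB1 and ITPR2.

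Male sham NT-BLs differed from male IVF-BLs in many genes, in about equal number up and down. In all, 886 genes were higher (6.19% of those tested) and 883 were lower (6.16%) by limma on log2(FPKM + 1) with Benjamini-Hochberg adjusted p under 0.05. Counts from the gene lists below are to be read against these shares. The median size of these differences, given as log2 differences of sham minus IVF throughout, was 1.29 among the higher and 1.35 among the lower genes, and 125 and 123 of them exceeded 2. In 480 genes every sham embryo was above every IVF embryo (3.35% of the genes tested), and in another 480 every one was below (3.35%). The median difference over all genes tested was -0.03. On the first principal component, which held 28.7% of the variance, sham embryos lay between -57.8 and -21.8 and IVF embryos between 38.4 and 45.1. Sham embryos were also the more varied: pairs of sham NT-BLs correlated at 0.823 to 0.923 (median 0.873) across 10577 genes, pairs of IVF-BLs at 0.872 to 0.906 (median 0.893), and pairs across the groups at 0.800 to 0.847. Genes are not independent replicates, and these correlations describe the libraries only. Male sham 1 and 2 alone gave 424 higher and 352 lower genes of 14180 tested, and male sham 3 to 6 alone 896 and 909 of 14198. Leaving out sham 2 gave 790 and 824. Sham 2 by itself, the sham library with the highest mapped share, gave 474 higher and 323 lower genes when it was assumed to vary like the IVF-BLs.

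The 12 named genes with the largest increases have unlike roles. PRKAR2A, a regulatory subunit of protein kinase A, had 177, 476, 153, 454, 585 and 299 FPKM in the sham NT-BLs, against 34.4, 30.7, 21.97, 23.5, 41.5 and 36.8 FPKM in the IVF-BLs. The groups lay far apart, and the log2 difference was 3.33 ± 0.32, adjusted p = 1.85e-05 (± SE here and below). SPC25, a kinetochore protein of the NDC80 complex, had 178, 200.5, 80.2, 171, 235 and 161 FPKM in sham NT-BLs, against 16.9, 6.19, 31.6, 13.3, 13.1 and 21.8 FPKM in IVF-BLs (3.32 ± 0.33, adjusted p = 2.19e-05). All 6 sham embryos again lay above all 6 IVF embryos. CYBASC3, a lysosomal cytochrome b561 protein, averaged 103 ± 63.8 FPKM in sham NT-BLs and 7.12 ± 2.00 FPKM in IVF-BLs (SD, n = 6 each) and differed by 3.48 ± 0.36, adjusted p = 3.07e-05. C21H14orf2, which encodes a small subunit of mitochondrial ATP synthase, averaged 264 ± 103 FPKM in sham NT-BLs and 23.1 ± 10.5 FPKM in IVF-BLs and differed by 3.48 ± 0.30, adjusted p = 1.17e-05. NME1, a nucleoside diphosphate kinase, and NCAPD2, a condensin subunit, differed by 3.62 and 3.29. TCF25 varied widely, at 17.1 to 491 (median 202) FPKM in sham NT-BLs and 0 to 17.6 (median 5.67) FPKM in IVF-BLs, with a difference of 5.08 ± 0.84, adjusted p = 0.000918. DKKL1, a secreted protein best known from the acrosome of sperm, read 29.9, 17.6, 1.01, 18.02, 11.6 and 15.2 FPKM in sham NT-BLs, against 0 to 0.699 FPKM in IVF-BLs (3.39 ± 0.53, adjusted p = 0.000631). NDUFB5 and RPL24, which belong to complex I and the large ribosomal subunit, completed the group at 4.24 and 3.20. Of the 12 largest increases, MIR2290 and ITPR2 belong to the rows that divide the sham libraries: MIR2290, a short gene, read 0, 0, 1140.1, 379, 348 and 1426 FPKM in sham NT-BLs and 0 in every male IVF-BL, and ITPR2 differed by 1.68, adjusted p = 0.452 with sham 1 and 2 alone. NCAPD2 did not pass in that pair either (2.79, adjusted p = 0.0627), nor in females (0.60, adjusted p = 0.581). NDUFB5, NME1 and DKKL1 did not pass in females either (1.58, 1.63 and 1.57, adjusted p = 0.151, 0.0909 and 0.106). MIR2290 and ITPR2 were called lower there, and TCF25, C21H14orf2, CYBASC3, PRKAR2A, SPC25 and RPL24 higher. The symbols NCAPD2 and ITPR2, and PPIA and S100A7 below, occur on more than 1 row, and their other rows are not given.

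Among the largest decreases was ATP6V0C, the proton-conducting ring subunit of the vacuolar ATPase that acidifies lysosomes. It had 36.7, 21.4, 28.3, 17.7, 13.7 and 16.4 FPKM in sham NT-BLs, against 183, 156, 178, 155, 157 and 152 FPKM in IVF-BLs. The sham level was about 0.137 of the IVF level, with a log2 difference of -2.89 ± 0.22, adjusted p = 6.51e-06. PPIA, a peptidyl-prolyl isomerase, had 28.6, 16.4, 16.5, 16.05, 24.7 and 6.89 FPKM in sham NT-BLs, against 218, 198, 141, 113, 134 and 102 FPKM in IVF-BLs (-3.04 ± 0.30, adjusted p = 2.19e-05). ID2, an inhibitor of helix-loop-helix factors, fell to 5.98, 9.73, 0, 6.12, 0.731 and 0 FPKM in sham NT-BLs, against 32.4, 49.9, 38.1, 19.7, 24.1 and 22.99 FPKM in IVF-BLs (-3.30 ± 0.57, adjusted p = 0.00126). Neither gene had any overlap between the groups. DGCR6 and the myosin phosphatase inhibitor PPP1R14A stood at 0 to 1.42 and 0 to 1.28 FPKM in sham NT-BLs and at 7.42 to 23.9 and 5.27 to 16.005 FPKM in IVF-BLs. S100A7, a calcium-binding protein, was listed at 0 in every male sham NT-BL and stood at 6.73, 5.61, 10.6, 8.01, 3.97 and 8.31 FPKM in the male IVF-BLs, while it was listed at 0 in all 11 female sham NT-BLs and IVF-BLs. RPL31 and RPL38 of the large ribosomal subunit fell by 3.07 and 2.93. Of these genes, ATP6V0C, PPIA, DGCR6 and RPL31 were called lower in females too. PPP1R14A, RPL38 and ID2 did not pass in females (-0.20, -0.13 and -1.65, adjusted p = 0.872, 0.868 and 0.0618). The remaining genes of the 12, GPX4, SCD, CYP11A1 and the histone gene HIST1H2AJ, belong to groups described below, except for HIST1H2AJ. Its call was lost without any 1 of 9 libraries (all but sham 1, IVF 2 and IVF 6), the adjusted p reaching 0.0823. PPIA, GPX4, the ribosomal proteins and histones belong to families with near-identical copies, and their reads can be shared between copies.

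Pluripotency genes were in part lower after sham manipulation. Of 20 tested members of the inner cell mass and epiblast list, 6 (30%) were lower and 0 higher in male sham NT-BLs. Of all genes tested, 6.16% were lower. At an unadjusted p under 0.05 the list also had 6 lower and 0 higher genes, and its median difference was -0.25. The same list gave 6 lower and 0 higher genes with male sham 1 and 2 alone and with male sham 3 to 6 alone. The summed level of the list was 293 to 399 FPKM in sham NT-BLs and 485 to 585 FPKM in IVF-BLs. POU5F1, the central factor of pluripotent cells, had 19.6, 8.18, 21.4, 11.2, 14.8 and 18.4 FPKM in the 6 sham NT-BLs, against 66.99, 47.1, 33.9, 73.2, 51.4 and 39.0 FPKM in the 6 IVF-BLs. Every sham embryo was below every IVF embryo, and the mean was 0.301 of the IVF mean (-1.69 ± 0.27, adjusted p = 0.000694). KLF5, a Kruppel-like factor of both early lineages, had 39.5, 28.3, 38.4, 24.96, 24.7 and 29.97 FPKM in sham NT-BLs, against 94.8, 82.5, 65.8, 111, 85.5 and 105 FPKM in IVF-BLs (-1.53 ± 0.20, adjusted p = 0.000141). ESRRB, an orphan nuclear receptor of the mouse naive network, had 22.7, 13.9, 24.7, 7.62, 23.5 and 26.5 FPKM in sham NT-BLs, against 50.2, 56.5, 49.3, 49.7, 54.4 and 48.6 FPKM in IVF-BLs (-1.43 ± 0.27, adjusted p = 0.00223). DPPA4, a chromatin protein of pluripotent cells, had 15.4, 11.7, 11.2, 21.5, 21.7 and 7.69 FPKM in sham NT-BLs, against 28.2, 24.5, 43.1, 47.97, 44.8 and 40.5 FPKM in IVF-BLs (-1.35 ± 0.28, adjusted p = 0.00419). For none of these 4 genes did the groups overlap. KLF4 and TBX3, named because they passed, differed by -1.39 ± 0.33, adjusted p = 0.011 and by -0.66 ± 0.19, adjusted p = 0.031. SOX2 did not pass, at 1.44 to 27.6 (median 15.4) FPKM in sham NT-BLs and 9.81 to 24.8 (median 16.3) FPKM in IVF-BLs (adjusted p = 0.516). NANOG, low throughout, was at 0 to 6.58 (median 2.39) FPKM in sham NT-BLs and 0 to 18.7 (median 3.61) FPKM in IVF-BLs (adjusted p = 0.499). In whole embryos, fewer cells of a type and less RNA per cell cannot be told apart.

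Fewer trophectoderm genes passed. Of 24 tested members, 5 rows (20.8%) were lower and 0 higher (7 and 0 at an unadjusted p under 0.05), and the median difference was -0.62. This group moved with the division of the sham libraries: it had 0 lower and 0 higher genes and a median of -0.03 with male sham 1 and 2 alone, and 8 lower genes and a median of -0.83 with male sham 3 to 6 alone. TFAP2C, an AP-2 factor that maintains trophoblast, had 34.5, 20.2, 34.2, 26.9, 40.9 and 28.9 FPKM in sham NT-BLs, against 55.4, 52.9, 57.9, 124, 61.1 and 66.4 FPKM in IVF-BLs. No values overlapped, and the difference was -1.11 ± 0.24, adjusted p = 0.00569, and -1.30, adjusted p = 0.0519 with sham 1 and 2 alone. CYP11A1, which makes pregnenolone from cholesterol, occupies 2 rows of the table. The first had 31.9, 347, 3.42, 2.56, 10.97 and 43.3 FPKM in sham NT-BLs, against 85.02, 624, 353, 407, 331 and 126 FPKM in IVF-BLs (-3.62 ± 0.88, adjusted p = 0.0117), and the other differed by -2.78 ± 0.61, adjusted p = 0.00638. Sham 2 lay within the range of the IVF embryos, and the rows did not pass with sham 1 and 2 alone (-1.29, adjusted p = 0.46 and -1.88, adjusted p = 0.224). MSX2, a homeobox factor, averaged 65.3 ± 29.03 FPKM in sham NT-BLs and 149 ± 59.8 FPKM in IVF-BLs (-1.17 ± 0.30, adjusted p = 0.0163). MSX2 did not pass with sham 1 and 2 alone (-0.94, adjusted p = 0.291). The identity factors CDX2 and GATA3 did not pass. CDX2 was at 6.78 to 41.02 (median 15.1) FPKM in sham NT-BLs and 8.71 to 40.6 (median 22.4) FPKM in IVF-BLs (adjusted p = 0.536), and GATA3 at 60.1 to 205 (median 127) FPKM in sham NT-BLs and 61.5 to 156 (median 96.7) FPKM in IVF-BLs (adjusted p = 0.697). The keratin KRT18 did not pass either, at 1529 to 3049 (median 2351) FPKM in sham NT-BLs and 2651 to 3896 (median 2713) FPKM in IVF-BLs (adjusted p = 0.48).

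The secreted products of ruminant trophoblast had 11 tested members, of which SSLP1, a secreted seminal-vesicle protein, was called higher and 0 were lower (1 and 1 at an unadjusted p under 0.05). SSLP1 had 253, 533, 228, 343, 265 and 246 FPKM in sham NT-BLs, against 70.5, 113, 100.5, 131, 109 and 76.6 FPKM in IVF-BLs (1.59 ± 0.23, adjusted p = 0.00037). IFNT2, an interferon tau gene through which the embryo signals pregnancy to the cow, was low and scattered, at 0 to 23.1 (median 2.57) FPKM in sham NT-BLs and 1.79 to 31.7 (median 5.94) FPKM in IVF-BLs (adjusted p = 0.413). In the primitive endoderm list 1 of 20 tested members was lower, GATA4, at 0 to 1.43 (median 0.404) FPKM in sham NT-BLs and 1.48 to 3.47 (median 2.58) FPKM in IVF-BLs (-1.22 ± 0.31, adjusted p = 0.0152), and its call was lost with sham 1 and 2 alone (adjusted p = 0.418). GATA6, the earlier factor of that lineage, was at 66.9 to 116 (median 76.1) FPKM in sham NT-BLs and 91.98 to 114 (median 107) FPKM in IVF-BLs (adjusted p = 0.235). Among 33 tested genes of junctions, sodium pump and water channels, 2 were higher and 2 lower. Either share, 6.06%, was near that of all genes tested (6.19% higher and 6.16% lower). CTNNA1, the alpha catenin that ties cadherins to actin, had 526, 277, 503, 423, 401 and 714 FPKM in sham NT-BLs, against 234, 168, 137, 231, 208 and 146 FPKM in IVF-BLs (1.31 ± 0.23, adjusted p = 0.0016), while another row with this symbol differed by 0.43 ± 0.25, adjusted p = 0.304. The groups did not overlap in the first row, though it missed the threshold with sham 1 and 2 alone (adjusted p = 0.0728). ATP1B3, a subunit of the sodium pump, was lower, at 26.01 to 95.4 (median 36.5) FPKM in sham NT-BLs and 79.2 to 164 (median 102) FPKM in IVF-BLs (-1.34 ± 0.28, adjusted p = 0.00424). ATP1B3 did not pass with sham 1 and 2 alone (-0.90, adjusted p = 0.21).

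**Figure D2:**
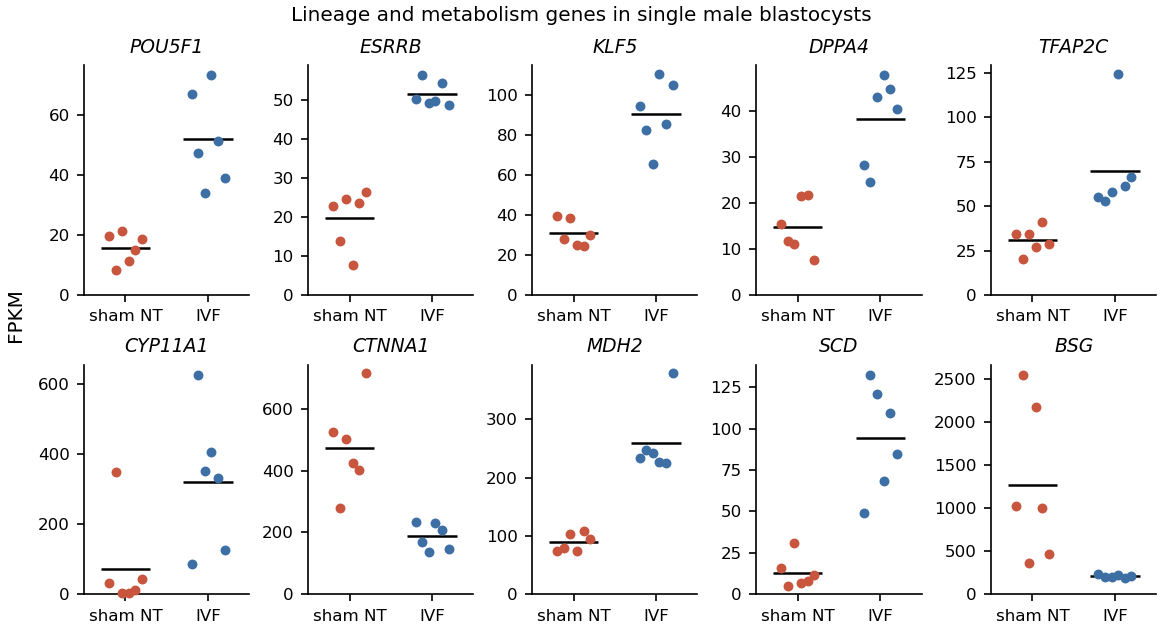
FPKM of 10 lineage and metabolism genes in the 6 male sham NT-BLs (red, left) and 6 male IVF-BLs (blue, right), 1 point per blastocyst in library order, with the group mean as a line. POU5F1, ESRRB, KLF5, DPPA4, TFAP2C, MDH2 and SCD lie lower in every sham NT-BL than in any IVF-BL, CTNNA1 and BSG lie higher, and CYP11A1 (its first row) overlaps through sham 2.

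Stress genes did not move as a body. Each stress list held higher and lower genes side by side, apart from the antioxidant, autophagy and immediate early lists, where only lower genes passed. Among 34 tested heat shock chaperones, 2 were higher and 2 lower, and the median was 0.02. Either share, 5.88%, was near that of all genes tested (6.19% higher and 6.16% lower). FKBP4, a co-chaperone of HSP90, had 521, 1376, 364, 1154, 549 and 728 FPKM in sham NT-BLs, against 161, 149.6, 181, 188, 175 and 183 FPKM in IVF-BLs. The lowest sham value was well above the highest IVF value (2.02 ± 0.28, adjusted p = 0.000235). HSPH1, a nucleotide exchange factor of HSP70, was higher by 0.85 ± 0.26, adjusted p = 0.0419, a call lost without any 1 of 9 libraries (all but sham 5, IVF 2 and IVF 3), the adjusted p reaching 0.0931. HSF1, the master factor of the heat shock response, was lower, at 15.5 to 42.6 (median 26.6) FPKM in sham NT-BLs and 41.8 to 73.4 (median 57.3) FPKM in IVF-BLs (-1.10 ± 0.26, adjusted p = 0.00944), as was the small chaperone HSPB1 (-1.50 ± 0.39, adjusted p = 0.0176), both missing the threshold with sham 1 and 2 alone (adjusted p = 0.0639 and 0.414). Neither passed in females, where HSF1 differed by -0.31 (adjusted p = 0.425) and HSPB1 had the opposite sign (0.52, adjusted p = 0.498). The stress-inducible HSPA1A, chosen after its values were seen, was at 2.16 to 36.2 (median 7.07) FPKM in sham NT-BLs and 4.89 to 16.6 (median 10.02) FPKM in IVF-BLs and did not pass (adjusted p = 0.81).

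Of 51 tested genes of the integrated and endoplasmic reticulum stress responses, 7 were higher and 4 lower, with a median of 0.03. ATF6, a membrane-bound sensor of unfolded proteins, had 218, 647, 233, 603, 330.4 and 363 FPKM in sham NT-BLs, against 136, 138, 86.02, 86.3, 136 and 107 FPKM in IVF-BLs. All sham values were above all IVF values (1.69 ± 0.28, adjusted p = 0.000869). CANX, the lectin chaperone calnexin, had 1347, 1323, 1150.2, 1112, 1221 and 2516 FPKM in sham NT-BLs, against 426, 589.9, 694, 526, 582 and 729 FPKM in IVF-BLs (1.25 ± 0.24, adjusted p = 0.00248). DDIT3, the death-promoting factor CHOP, had 1071, 1312, 181, 299, 323 and 323 FPKM in sham NT-BLs, against 74.6, 182, 206, 81.98, 50.4 and 85.1 FPKM in IVF-BLs (2.15 ± 0.47, adjusted p = 0.00591). Here sham 1 and 2 stood far above the other male sham embryos, the male libraries dividing as in CNGB1. Female sham NT-BLs did not divide in DDIT3, with female sham 1 at 475 FPKM and female sham 2 to 5 at 364 to 957 FPKM. The male difference was 3.56, adjusted p = 0.00202 with sham 1 and 2 alone and 1.45, adjusted p = 0.016 with sham 3 to 6 alone. NUPR1, a small stress protein induced by ATF4, was lower, at 1.91 to 15.2 (median 7.33) FPKM in sham NT-BLs and 15.1 to 52.1 (median 37.1) FPKM in IVF-BLs (-2.30 ± 0.44, adjusted p = 0.00245), and passed with sham 3 to 6 alone but not with sham 1 and 2 alone (-1.79, adjusted p = 0.0519). Of other genes of these responses, chosen after their values were seen, ATF4 was at 106 to 243 (median 145) FPKM in sham NT-BLs and 151 to 255 (median 210.4) FPKM in IVF-BLs (adjusted p = 0.229), HSPA5 at 109 to 629 (median 457) FPKM in sham NT-BLs and 107 to 406 (median 253) FPKM in IVF-BLs (adjusted p = 0.478) and XBP1 at 2.41 to 10.3 (median 7.16) FPKM in sham NT-BLs and 2.42 to 20.3 (median 11.002) FPKM in IVF-BLs (adjusted p = 0.441). None of the 3 passed. The other members called were PDIA4, EDEM1, DNAJB11 and PHGDH, higher by 2.00, 1.48, 1.65 and 1.27, and CRELD2, PPP1R15B and MANF, with differences of -1.65, -0.70 and -2.12.

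Among the stress lists, the antioxidant one held the most genes that fell. Of 46 tested members, 11 (23.9%) were lower and 0 higher (16 and 4 at an unadjusted p under 0.05), and the median was -0.33. The summed level was 1950.2 to 4000.0 FPKM in sham NT-BLs and 4269 to 5414 FPKM in IVF-BLs. FTH1, the heavy chain of the iron store ferritin, had 278, 578, 268, 231, 242 and 311 FPKM in sham NT-BLs, against 1104, 1016, 1218, 1522, 1084 and 942 FPKM in IVF-BLs. The groups were wide apart, although sham 2 stood above the other sham embryos (-1.91 ± 0.23, adjusted p = 9.2e-05). GPX4, which reduces lipid peroxides in membranes, had 0, 9.05, 2.24, 2.31, 0.514 and 0.526 FPKM in sham NT-BLs, against 36.6, 26.7, 54.1, 25.1, 20.3 and 26.8 FPKM in IVF-BLs (-3.63 ± 0.47, adjusted p = 0.000143). GPX1, the cytosolic glutathione peroxidase, had 32.6, 11.9, 19.01, 7.22, 20.2 and 21.7 FPKM in sham NT-BLs, against 50.8, 56.7, 112, 73.4, 105 and 111 FPKM in IVF-BLs (-2.18 ± 0.32, adjusted p = 0.000382). NFE2L2, the factor that drives antioxidant genes, had 71.5, 54.4, 119, 46.8, 50.8 and 67.02 FPKM in sham NT-BLs, against 131, 163, 167, 246, 172 and 154 FPKM in IVF-BLs (-1.37 ± 0.23, adjusted p = 0.00113). All 4 were lower in every sham embryo than in any IVF embryo, and all 4 passed with sham 1 and 2 alone and with sham 3 to 6 alone. The other 7 called, named because they passed, were PRDX1, HMOX2, TXN, TXNIP, SQSTM1, SOD2 and NQO1, between -2.17 and -0.78. SOD1, the cytosolic superoxide dismutase, did not pass and was scattered among sham embryos, at 104 to 1887 (median 455) FPKM in sham NT-BLs and 181 to 279.9 (median 197) FPKM in IVF-BLs (adjusted p = 0.192). With sham 1 and 2 alone the list had 4 lower genes and 1 higher, and with sham 3 to 6 alone 12 and 1.

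Of 46 tested genes of apoptosis and the DNA damage response, 6 were higher (13.0%) and 3 lower (6.52%), with a median of 0.03. With sham 1 and 2 alone 1 gene of the list was higher and 1 lower, and with sham 3 to 6 alone 6 and 4. MCL1, a short-lived BCL2 relative that blocks cell death, had 1942, 1360.1, 1146, 1202, 961 and 944 FPKM in sham NT-BLs, against 283, 255, 284, 203, 268 and 388 FPKM in IVF-BLs. The lowest sham embryo was well above the highest IVF embryo, and the mean was 4.49 times the IVF mean (2.14 ± 0.22, adjusted p = 2.88e-05). CASP2, an initiator caspase, had 32.9, 15.6, 23.7, 43.5, 56.1 and 28.2 FPKM in sham NT-BLs, against 14.1, 6.95, 7.81, 11.8, 10.9 and 13.1 FPKM in IVF-BLs (1.47 ± 0.30, adjusted p = 0.00386), and missed the threshold with sham 1 and 2 alone (adjusted p = 0.171). PERP, a desmosome protein that promotes apoptosis, was lower, at 4.50 to 21.8 (median 9.89) FPKM in sham NT-BLs and 25.95 to 67.03 (median 40.3) FPKM in IVF-BLs (-2.08 ± 0.34, adjusted p = 0.000848), and MDM4, a RING domain protein related to MDM2, higher, at 21.3 to 91.02 (median 56.8) FPKM in sham NT-BLs and 12.9 to 26.3 (median 20.2) FPKM in IVF-BLs (1.25 ± 0.31, adjusted p = 0.0139). MDM4 did not pass with sham 1 and 2 alone (adjusted p = 0.0716). Genes that rose thus included a blocker of death and a starter of it. The cell cycle inhibitor CDKN1A was at 1.08 to 12.9 (median 3.94) FPKM in sham NT-BLs and 1.80 to 28.2 (median 8.84) FPKM in IVF-BLs (adjusted p = 0.286) and did not pass, and was chosen after its values were seen.

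**Figure D3:**
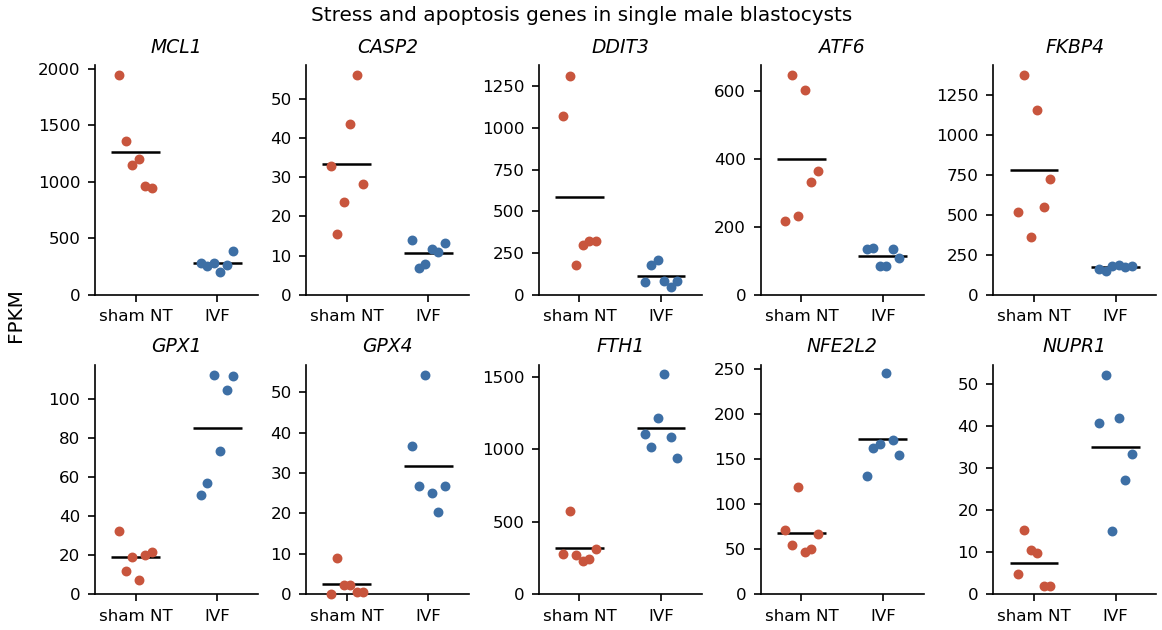
FPKM of 10 stress and apoptosis genes in the 6 male sham NT-BLs (red, left) and 6 male IVF-BLs (blue, right), 1 point per blastocyst in library order, with the group mean as a line. MCL1, CASP2, ATF6 and FKBP4 lie higher in every sham NT-BL than in any IVF-BL, GPX1, GPX4, FTH1 and NFE2L2 lie lower, and DDIT3 and NUPR1 overlap.

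Of 22 tested hypoxia genes, 4 were lower and 1 higher, with a median of -0.42, and with sham 1 and 2 alone 2 were lower and 1 higher. HIF1A, the oxygen-regulated factor, was at 13.5 to 35.9 (median 17.8) FPKM in sham NT-BLs and 34.8 to 62.1 (median 45.6) FPKM in IVF-BLs (-1.20 ± 0.25, adjusted p = 0.00486). BNIP3, a mitochondrial autophagy receptor, was at 26.5 to 55.1 (median 36.7) FPKM in sham NT-BLs and 58.8 to 114 (median 71.5) FPKM in IVF-BLs (-1.03 ± 0.22, adjusted p = 0.00552) and did not overlap between the groups. EPAS1, the sister factor of HIF1A, differed by -2.21 ± 0.48, adjusted p = 0.00594, and the collagen prolyl hydroxylase subunit P4HA2 was higher by 1.25 ± 0.33, adjusted p = 0.0188. HIF1A and EPAS1 did not pass with sham 1 and 2 alone (adjusted p = 0.163 and 0.161), nor P4HA2 with sham 3 to 6 alone (adjusted p = 0.091). Among 32 tested autophagy genes 5 were lower and 0 higher (12 and 1 at an unadjusted p under 0.05). LAMP1, the main lysosomal membrane protein, was at 51.4 to 201 (median 94.2) FPKM in sham NT-BLs and 178 to 337 (median 234) FPKM in IVF-BLs (-1.36 ± 0.28, adjusted p = 0.00417), and OPTN, an autophagy receptor, at 21.7 to 57.9 (median 39.5) FPKM in sham NT-BLs and 65.9 to 91.1 (median 74.1) FPKM in IVF-BLs (-1.001 ± 0.25, adjusted p = 0.0143). With sham 1 and 2 alone 1 autophagy gene passed, and LAMP1 and OPTN did not (adjusted p = 0.153 and 0.0772). Of 29 tested immediate early genes, which answer growth factors and injury soon after a stimulus, JUNB alone passed, at 0.452 to 4.02 (median 1.24) FPKM in sham NT-BLs and 2.30 to 23.9 (median 9.32) FPKM in IVF-BLs (-1.98 ± 0.49, adjusted p = 0.0141), with 6 genes lower and 1 higher at an unadjusted p under 0.05 and 0 of the list passing with sham 1 and 2 alone. This count rested on the libraries used, since 4 genes of the list were lower without sham 2 and 5 with sham 3 to 6 alone, and in females 8 of 29 were lower.

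Metabolic lists were mixed, with large changes in single enzymes. In the citrate cycle and pyruvate dehydrogenase list 3 of 33 tested genes were higher and 4 lower, with a median of 0.02. Without sham 2, 5 genes of the list were higher, with sham 3 to 6 alone 6, and with sham 1 and 2 alone 1. MDH2, mitochondrial malate dehydrogenase, had 74.4, 78.7, 103, 74.9, 108 and 95.1 FPKM in sham NT-BLs, against 233, 248, 243, 226, 225 and 379 FPKM in IVF-BLs (-1.52 ± 0.19, adjusted p = 9.2e-05). Every sham embryo was below every IVF embryo. SUCLA2, of succinyl-CoA ligase, was higher by 1.29 ± 0.25, adjusted p = 0.00309 (0.85, adjusted p = 0.182 with sham 1 and 2 alone), and SDHC, of succinate dehydrogenase, lower, with -1.11 ± 0.22, adjusted p = 0.00375. CS, citrate synthase, named because it passed, was lower, at 107 to 327 (median 159) FPKM in sham NT-BLs and 359 to 518 (median 409.9) FPKM in IVF-BLs (-1.25 ± 0.25, adjusted p = 0.004). Glycolysis and sugar transport showed little: 1 of 25 and 1 of 15 tested genes were higher and 0 lower in either list (at an unadjusted p under 0.05, 3 and 1 higher and 2 and 0 lower). BSG, the chaperone that brings lactate transporters to the membrane, had 1024, 2549, 363, 2168, 1006 and 470.1 FPKM in sham NT-BLs, against 229.8, 204, 194, 226, 184 and 208 FPKM in IVF-BLs (2.26 ± 0.40, adjusted p = 0.00139). Its lowest sham value was above its highest IVF value. The glucose transporters SLC2A1 and SLC2A3 did not pass: SLC2A1 was at 50.6 to 113 (median 64.8) FPKM in sham NT-BLs and 68.7 to 105 (median 92.1) FPKM in IVF-BLs (adjusted p = 0.263), and SLC2A3 at 425 to 885 (median 675) FPKM in sham NT-BLs and 419 to 815 (median 567) FPKM in IVF-BLs (adjusted p = 0.676).

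Of 50 tested genes of lipid droplets and fatty acids, 4 were higher and 5 lower. SCD, which places the first double bond in fatty acids and also occupies 2 rows, had 15.8, 5.21, 30.7, 7.04, 7.67 and 11.4 FPKM in sham NT-BLs, against 49.2, 132, 121, 68.3, 109.6 and 84.5 FPKM in IVF-BLs. The groups did not overlap (-2.92 ± 0.36, adjusted p = 9.53e-05), and the other row differed by -1.35 ± 0.38, adjusted p = 0.028. FADS2, a desaturase of polyunsaturated fatty acids, averaged 14.2 ± 5.31 FPKM in sham NT-BLs and 50.6 ± 22.6 FPKM in IVF-BLs (-1.73 ± 0.30, adjusted p = 0.00133), and the triglyceride lipase PNPLA2 3.54 ± 2.07 FPKM in sham NT-BLs and 16.4 ± 3.97 FPKM in IVF-BLs (-2.02 ± 0.34, adjusted p = 0.000978). DGAT1, which makes triglycerides, had 27.4, 27.2, 20.5, 41.96, 47.5 and 24.6 FPKM in sham NT-BLs, against 7.37, 6.76, 6.20, 2.92, 6.43 and 12.2 FPKM in IVF-BLs (2.05 ± 0.30, adjusted p = 0.000379). Each of these 4 genes separated the groups, while FADS2 missed the threshold with sham 1 and 2 alone (adjusted p = 0.102). In cholesterol synthesis and uptake 7 of 33 tested genes were lower and 1 higher, with a median of -0.43. SREBF2, the factor that drives this pathway, averaged 9.24 ± 4.05 FPKM in sham NT-BLs and 24.5 ± 5.66 FPKM in IVF-BLs (-1.39 ± 0.30, adjusted p = 0.00551), and DHCR7, its last enzyme, 35.9 ± 11.4 FPKM in sham NT-BLs and 84.6 ± 20.2 FPKM in IVF-BLs (-1.24 ± 0.25, adjusted p = 0.00424). SQLE, squalene epoxidase, was lower as well (-1.42 ± 0.37, adjusted p = 0.0186), and ACAT2, which makes acetoacetyl-CoA in the cytosol, was the higher gene (1.10 ± 0.23, adjusted p = 0.00478). With sham 1 and 2 alone, SREBF2 and DHCR7 passed and SQLE and ACAT2 did not (adjusted p = 0.166 and 0.227).

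Large complexes split among their own subunits. Cytosolic ribosomal proteins had 27 of 78 tested genes lower (34.6%) and 6 higher (7.69%), with a median of -0.59. Their summed level was 21317 to 34031 FPKM in sham NT-BLs and 34007 to 43847 FPKM in IVF-BLs. Subunits of oxidative phosphorylation had 9 of 80 higher and 19 lower, and mitochondrial ribosomal proteins 8 of 75 higher and 14 lower. NDUFB5 of complex I averaged 97.98 ± 69.7 FPKM in sham NT-BLs and 3.66 ± 3.38 FPKM in IVF-BLs (4.24 ± 0.63, adjusted p = 0.000399), while NDUFS8 and NDUFA8 of the same complex differed by -2.05 and -1.43 and ATP5G3 of ATP synthase by -1.73. Of these 4 genes only NDUFS8 passed in females (-0.89, adjusted p = 0.0289). There NDUFA8 had the opposite sign (0.55, adjusted p = 0.209). In females 11 of 79 tested oxidative phosphorylation subunits were higher and 6 lower. In the proteasome list 7 of 37 tested genes were higher and 5 lower, and the summed level was 3145 to 5091 FPKM in sham NT-BLs and 1888 to 2611 FPKM in IVF-BLs. PSMC3, an ATPase of the cap, was at 539 to 1374 (median 1009) FPKM in sham NT-BLs and 152 to 265 (median 217) FPKM in IVF-BLs, and PSMB1, of the catalytic core, at 5.26 to 27.5 (median 8.53) FPKM in sham NT-BLs and 64.01 to 84.9 (median 75.5) FPKM in IVF-BLs. These, chosen after their values were seen, differed by 2.18 ± 0.24, adjusted p = 3.74e-05 and by -2.67 ± 0.35, adjusted p = 0.000141, in opposite directions within 1 complex. RPS6 and RPS13 of the small ribosomal subunit, chosen likewise, differed by 2.54 ± 0.24, adjusted p = 1.79e-05 and by -1.63 ± 0.24, adjusted p = 0.000413. Reads of ribosomal protein genes can be shared with processed copies. With sham 1 and 2 alone, 19 ribosomal proteins were lower and 5 higher, and 2 proteasome genes were higher and 1 lower.

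Among the remaining lists, 4 of 62 tested cell cycle genes were higher and 8 lower. CDC20, an activator of the anaphase-promoting complex, was at 12.9 to 19.8 (median 17.1) FPKM in sham NT-BLs and 42.7 to 102 (median 65.5) FPKM in IVF-BLs (-1.90 ± 0.23, adjusted p = 9.2e-05), and the origin recognition subunit ORC6 at 116 to 253 (median 191) FPKM in sham NT-BLs and 36.3 to 68.2 (median 61.99) FPKM in IVF-BLs (1.64 ± 0.24, adjusted p = 0.00037), both chosen after their values were seen. With sham 3 to 6 alone 10 cell cycle genes were higher. Genes of DNA and histone methylation had 5 of 35 higher and 1 lower. Imprinted genes had 3 of 26 higher and 2 lower, and interferon-stimulated genes 1 of 30 higher and 0 lower (1 and 0 at an unadjusted p under 0.05). Without sham 2, 0 interferon-stimulated genes, 2 lipid genes and 1 heat shock chaperone were higher, and 1 glycolysis gene and 1 gene of the proteins that ruminant trophoblast secretes were lower. Markers of oocyte, cumulus, fibroblast and blood cells had 23, 9, 13 and 5 tested members, of which 0 were called (without sham 2, 1 fibroblast gene was higher and 1 lower), with 1, 1, 2 and 1 higher and 1, 0, 1 and 0 lower at an unadjusted p under 0.05. Their summed levels in sham NT-BLs were 36.3 to 156, 22.5 to 45.4, 24.96 to 165 and 30.2 to 77.9 FPKM, against 65.9 to 108, 19.4 to 40.1, 28.01 to 347 and 23.1 to 49.5 FPKM in IVF-BLs. As single members, the oocyte factor GDF9 was at 0 to 1.54 FPKM in sham NT-BLs and 0 in all IVF-BLs, and the fibroblast collagen COL1A1 at 0.610 to 1.76 FPKM in sham NT-BLs and 0 to 1.88 FPKM in IVF-BLs. Other members made up most of the summed levels of these lists. Of the housekeeping genes, ACTB was lower, at 2090.3 to 4101 (median 3253) FPKM in sham NT-BLs and 5409.7 to 8220.4 (median 5656) FPKM in IVF-BLs (-0.96 ± 0.26, adjusted p = 0.0222), a call lost without sham 5 (adjusted p = 0.055) or IVF 2 (adjusted p = 0.0608). ACTB did not pass with sham 1 and 2 alone (adjusted p = 0.309). GAPDH did not pass, at 368 to 1658 (median 594) FPKM in sham NT-BLs and 649 to 1112 (median 818) FPKM in IVF-BLs (-0.32 ± 0.32, adjusted p = 0.569).

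**Figure D4:**
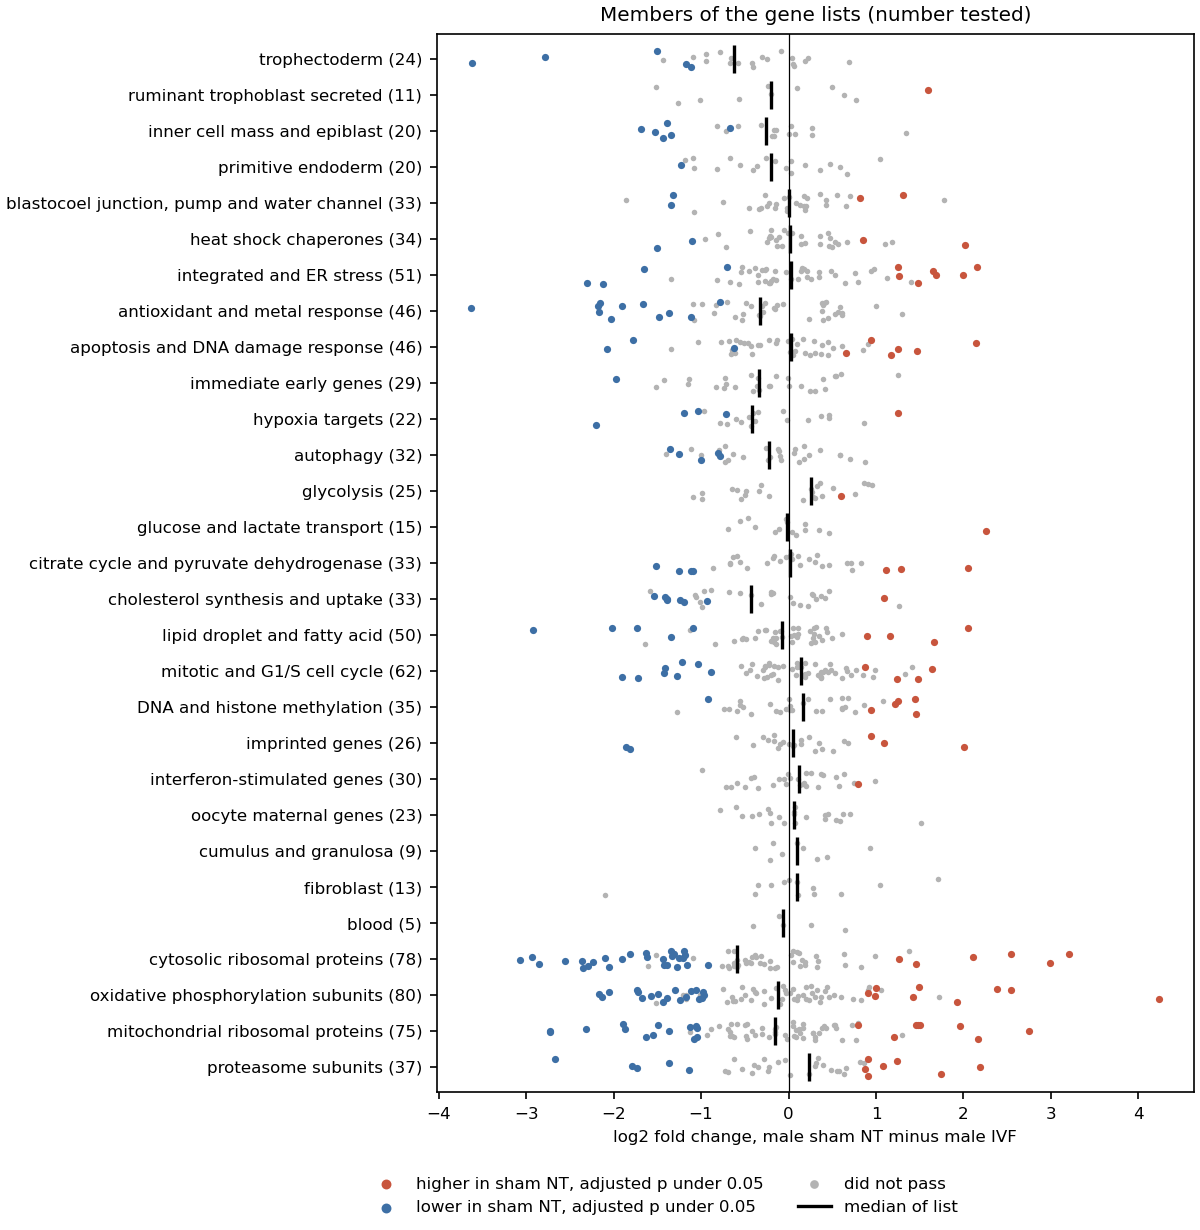
Log2 difference of male sham NT-BLs minus male IVF-BLs for every tested member of each list (1 point per gene, red higher and blue lower at adjusted p under 0.05, grey not passing) with the median of the list as a bar and the number tested in brackets. Antioxidant genes (11 lower, 0 higher), inner cell mass genes (6 and 0) and ribosomal proteins (27 and 6) lean to lower levels, while proteasome and mitochondrial subunits spread to both sides.

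Female embryos gave a separate measure of the same contrast. In 5 female sham NT-BLs against 6 female IVF-BLs, 1040 of 14615 tested genes were higher (7.12%) and 961 lower (6.58%). Of the 886 genes higher in males, 91.8% had the same direction in females, and of the 880 lower genes that were tested in females, 89.8%, where 67.3% of all 13579 genes tested in both sexes had the same direction. In females 430 of the male higher genes were called higher, which is 48.5% of the male and 41.3% of the female list, and 357 of the lower genes were called lower, 40.4% and 37.1%. Calls in the opposite direction numbered 9 and 6. Among all genes tested in both sexes, 7.66% were called higher and 7.06% lower in females. The median female difference was 0.90 for the genes higher in males and -0.85 for the genes lower in males.

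Named genes held up in females to different degrees. MCL1 had 854 to 2307 FPKM in female sham NT-BLs and 144 to 280.0 FPKM in female IVF-BLs (2.92, adjusted p = 3.49e-05). POU5F1 had 11.1 to 31.7 FPKM in female sham NT-BLs and 35.6 to 136 FPKM in female IVF-BLs (-1.97, adjusted p = 0.00107). Of the 6 inner cell mass genes lower in males, 5 were called lower in females, with ESRRB at -2.28, adjusted p = 4.26e-05 and DPPA4, which did not pass, at -0.58, adjusted p = 0.161. FKBP4, ATF6, DDIT3, CASP2 and BSG were called higher in females too, by 2.16, 2.18, 2.31, 2.06 and 3.06. Of the antioxidant genes, FTH1 (-1.88, adjusted p = 0.00066) and GPX4 (-1.75, adjusted p = 0.0252) were called lower in females, whereas GPX1 (-0.56, adjusted p = 0.165) and NFE2L2 (-0.89, adjusted p = 0.111) did not pass. In all, 3 of the 11 antioxidant calls, 0 of the 5 trophectoderm calls and 19 of the 33 ribosomal protein calls passed in females with the same direction, while 9, 5 and 28 of these genes had the male sign in females. For TFAP2C the female difference was -0.19, adjusted p = 0.684, for SCD -1.05, adjusted p = 0.267, and for MDH2 -0.75, adjusted p = 0.0318. IFNT2, which did not pass in males, was lower in females (-3.13, adjusted p = 0.0021).

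**Figure D5:**
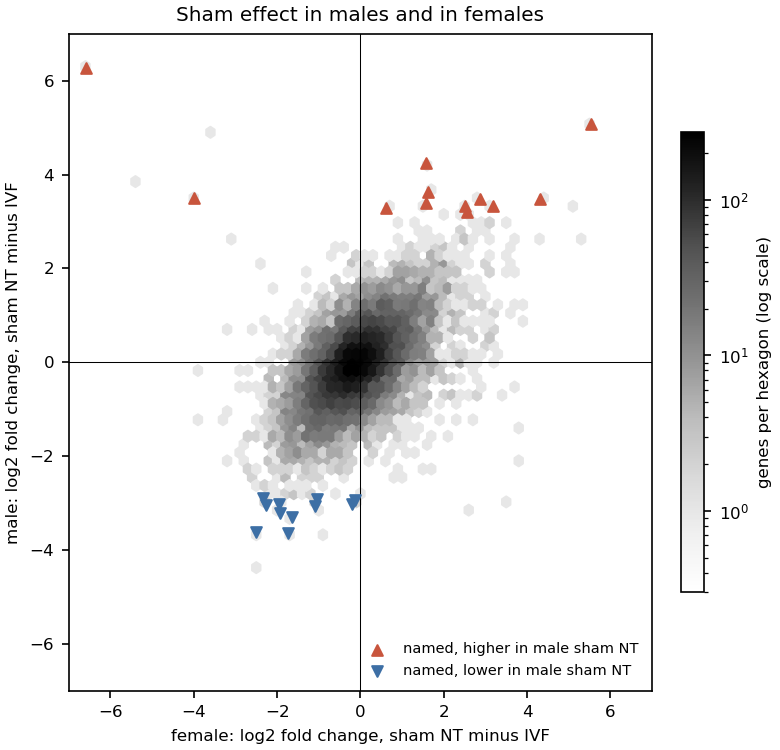
Log2 difference of sham NT-BLs minus IVF-BLs in females (x axis) and in males (y axis) for the genes tested in both sexes, with the number of genes per hexagon in grey on a log scale. Triangles mark the named genes with the largest male increases (red) and decreases (blue). Most fall in the same direction in both sexes, while MIR2290 and ITPR2 lie in opposite directions, and S100A7, not tested in females, is not drawn.

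The difference between the sexes was tested directly. By the interaction of sex and treatment, 185 of 14740 genes passed (1.26%), 58 with a larger value in males and 127 with a smaller one. Rows that divide the sham libraries were among them. CNGB1 had 11.5, 28.2, 0.866, 1.25, 1.16 and 1.25 FPKM in male and 1.37, 24.7, 22.5, 26.8 and 26.6 FPKM in female sham NT-BLs, and the male minus female difference of effects was -5.15 (adjusted p = 0.00193). FBXO47, an F-box protein, had 13.7, 20.9, 0.956, 0.915, 0.877 and 1.10 FPKM in male and 1.13, 18.7, 14.7, 16.8 and 14.6 FPKM in female sham NT-BLs, against 6.67 to 11.6 FPKM in male and 0.177 to 1.31 FPKM in female IVF-BLs. LYZ1, a lysozyme, followed the same division, at 0.245, 0, 4.59, 4.54, 5.39 and 5.17 FPKM in male sham NT-BLs and 3.48, 0, 0, 0 and 0 FPKM in female sham NT-BLs. Without female sham 2 or 4, 108 or 112 genes passed. With male sham 1 and 2 and female sham 1 as the only sham libraries, 60 genes passed, a count in which female sham 1 is the only female sham library, and with male sham 3 to 6 and female sham 2 to 5 as the only ones, 347. Female sham 1 alone against female IVF-BLs gave 38 higher and 6 lower genes, with that 1 library assumed to vary like the IVF-BLs. RPL31, not among the 10 rows, also passed, with a smaller value in males (-1.98, adjusted p = 0.00724). POU5F1, MCL1, FKBP4, ATF6 and FTH1 did not pass this test (adjusted p of 0.837, 0.401, 0.934, 0.696 and 0.986).

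Male SCNT-BLs, cloned from adult ear fibroblasts, received puncture and activation as well and are given here for their levels alone, since they share the IVF-BLs as controls. POU5F1 stood at 35.1 to 80.3 FPKM in male SCNT-BLs, at 8.18 to 21.4 FPKM in male sham NT-BLs and at 33.9 to 73.2 FPKM in male IVF-BLs. MCL1 stood at 264 to 352 FPKM in male SCNT-BLs, at 944 to 1942 FPKM in male sham NT-BLs and at 203 to 388 FPKM in male IVF-BLs. Both genes were chosen after their values were seen, as were the other 2 here. FTH1 ranged over 709 to 1123 FPKM in SCNT-BLs, 231 to 578 FPKM in sham NT-BLs and 942 to 1522 FPKM in IVF-BLs, and FKBP4 over 163 to 263, 364 to 1376 and 149.6 to 188 FPKM in that order. In each of these 4 genes the sham range did not overlap the SCNT range, but in other genes it did. NFE2L2 was at 46.8 to 119 FPKM in male sham NT-BLs and 72.5 to 141 FPKM in male SCNT-BLs. SCD (first row) was at 5.21 to 30.7 and 11.3 to 60.1 FPKM, and DDIT3 at 181 to 1312 and 81.9 to 248 FPKM. The share of all genes without such overlap was not computed.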

How the data were processed

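Poly-A RNA of single blastocysts was amplified by pico-profiling and sequenced as paired ends on a HiSeq, with no strand kept. The submitters' processing notes name Trim Galore, TopHat, Cufflinks, Cuffdiff and the UMD3.1 build. The deposited values are FPKM per gene, which the authors made with Cufflinks. No counts were used here, so depth per library is unknown. Rows of the X block of the table and other rows on X, Y or the mitochondrial genome were left out (999 and 23 rows).

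Autosomal rows with a mean over 0.1 FPKM in the libraries compared were tested on log2(FPKM + 1) with limma 3.58.1 in R 4.3.3 (lmFit and eBayes with trend, two-sided, Benjamini-Hochberg over all genes tested, threshold 0.05). The log2 scale understates the change of low genes. Library totals were compared by exact permutation over 924 labelings. The code was tested on simulated data. P-values measure the spread between single embryos, whose parents, culture runs and dates the labels do not give.

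Named genes were the 12 per direction with the largest differences (symbol not beginning with LOC, over 1 FPKM in the higher group), up to 4 per lineage, stress or metabolism list with the smallest p, up to 6 per direction of the sex difference, ACTB and GAPDH. Members and lists were chosen with earlier results of these data known. Mapped shares came from the study's read statistics and are given as counts of libraries. Alternatives were another pseudocount, other filters, scalings and weights, a replicate block, all 6 groups in 1 fit, and leaving out each library. Results on a few genes that the naming rule picked are not reported here.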

Additional observations from a re-analysis of the deposited data

Results flagged for a closer look

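In 12 of 213 groups of 6 male embryos examined for the named genes and the library measures, 1 embryo lay far from the other 5. Chance gives about 5% of groups, and 12 of 213 is near that share. All of those found were in named genes. These were DKKL1 in sham 3 (1.01 FPKM, the other 5 at 11.6 to 29.9), SPC25 in sham 3 (80.2 FPKM, the other 5 at 161 to 235), TFAP2C in IVF 4 (124 FPKM, the other 5 at 52.9 to 66.4), CANX in sham 6 (2516 FPKM, the other 5 at 1112 to 1347), FTH1 in sham 2 (578 FPKM, the other 5 at 231 to 311). They were also PFKL in IVF 4 (44.3 FPKM, the other 5 at 57.4 to 66.4), SLC2A1 in sham 4 (113 FPKM, the other 5 at 50.6 to 67.5), MDH2 in IVF 6 (379 FPKM, the other 5 at 225 to 248), DHCR7 in IVF 4 (47.1 FPKM, the other 5 at 79.6 to 102), and ACTB in IVF 2 (8220.4 FPKM, the other 5 at 5409.7 to 6229), LYZ1 in IVF 2 (0.319 FPKM, the other 5 at 0 to 0.106), NDUFA7 in IVF 6 (354 FPKM, the other 5 at 202 to 242). DKKL1 and SPC25 were higher in sham NT-BLs and ACTB lower with these embryos included.

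The effect of sham manipulation differed between males and females in 16 named genes, by limma on the male minus female difference of log2 effects. It was more positive in males for MIR2290 (12.87, adjusted p = 0.00399), ITPR2 (7.49, adjusted p = 0.00102), LYZ1 (3.75, adjusted p = 0.00193), ALKBH3 (3.08, adjusted p = 0.00029), GTSF1 (2.95, adjusted p = 0.0278) and ATP6V0B (2.92, adjusted p = 0.00646). It was more negative in males for RPL31 (-1.98, adjusted p = 0.00724), S100A7 (-2.99, adjusted p = 1.09e-06), RPL38 (-2.81, adjusted p = 0.016), NDUFA8 (-1.98, adjusted p = 0.00446), NDUFA7 (-3.48, adjusted p = 0.0238), TUBA3E (-3.52, adjusted p = 0.0176), ACD (-3.62, adjusted p = 0.00354), FBXO47 (-3.86, adjusted p = 0.0178), ALPI (-4.03, adjusted p = 0.0018) and CNGB1 (-5.15, adjusted p = 0.00193). CNGB1, FBXO47, ITPR2 and MIR2290 are among the 10 rows that place male sham 3 to 6 nearer to the female and female sham 2 to 5 nearer to the male libraries, and what set this division was not tested. LYZ1, ACD, ALPI, NDUFA7 and ALKBH3, outside those rows, also had male sham 1 and 2 on one side of male sham 3 to 6 and female sham 1 on one side of female sham 2 to 5. The male sham minus IVF difference was 0.45 with sham 1 and 2 and -1.38 with sham 3 to 6 for ACD, and 0.999 with sham 1 and 2 and -1.47 with sham 3 to 6 for NDUFA7. S100A7 was listed at 0 in all 11 female libraries, so its value restates the male difference.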

How the results depend on the processing

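Counts of male genes higher and lower stayed within 1.5 times of 886 and 883 under another pseudocount, other filters, 2 scalings, library weights, the X rows and 1 fit of all 6 groups (784 to 1191 and 762 to 1162), and at 692 to 974 and 704 to 949 with each library left out. Median centring gave 838 and 911. Sham 2 alone gave 474 and 323, and sham 1 and 2 alone, chosen after seeing the data, 424 and 352, from fewer libraries. Female counts ran 806 to 1083 and 682 to 934 with each library left out, and female sham 1 alone, assumed to vary like the IVF-BLs, gave 38 and 6. Replicate numbers did not pair the embryos (same-number correlations of deviations between -0.09 and 0.07, 1 of 11 best with its own number): with the replicate block 729 and 716 male genes, 705 higher and 587 lower female genes, and 66 genes of the sex difference passed. That count of 185 was 297 with library weights, 108 to 237 with each library left out (108 without female sham 2, 112 without female sham 4), 60 with male sham 1 and 2 and female sham 1, and 347 with the other sham libraries. The sham minus IVF difference in genes listed at 0 ran from 297 to 499 with each library left out, and passed the exact test without sham 2 or IVF 1. That in genes over 1 FPKM ran from -266 to -141 and passed without sham 2. Of 83 named genes called with all libraries, CYP11A1 (first row) turned, at 0.41 in sham 2 alone (adjusted p = 0.859), and 153 of 1988 comparisons with an alternative lost the call. Of the other 21, 8 changed sign in sham 2 alone or sham 1 and 2 alone: PAG2, IFNT2, ENO1, NDUFA7, ACD, FBXO47, CNGB1 and GAPDH. The causes were not tested. FPKM give no depth, so low genes listed at 0 may be present.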
